A study of Mus musculus with 2 samples.

Results

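The genes described here are 10 members of the heat shock and alpha-crystallin group, followed across the cell classes of 2 mouse retina libraries. They were taken by gene symbol from the 31053 genes of the 10x Genomics feature lists. In both libraries all 10 were listed: Hspa1a and Hspa1b (stress-inducible HSP70), Hspa8 (the constitutive HSP70, also called HSC70), Dnajb1 (HSP40), Hsph1 (HSP110), Hsp90aa1 (the stress-responsive cytosolic HSP90), Bag3 (an HSP70 co-chaperone), Hspb1 (HSP25, a small heat shock protein), Cryab (alpha-B-crystallin) and Cryaa (alpha-A-crystallin). The 2 libraries come from retinas of mice given either phosphate-buffered saline (PBS) or sodium iodate (NaIO3) by intravenous injection. The iodate dose was 20 mg/kg, and tissue was taken on day 7. In each group the retinas of 6 mice were pooled, digested with papain (15 U/mL) and DNase I (0.1 mg/mL) at 34 °C, and run as 1 library. Strain, age and sex are not given in the labels.

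Heat shock proteins are chaperones that hold, refold or hand on misfolded proteins. HSP70 works in a cycle: J-domain proteins such as DNAJB1 deliver clients and speed ATP hydrolysis, exchange factors such as HSPH1 and BAG3 release ADP, and some clients pass on to HSP90. Small heat shock proteins, alpha-crystallins included, hold unfolded proteins without using ATP. Heat shock factor 1 (HSF1) induces many of these genes from heat shock elements, which are inverted repeats of the unit GAA. In the retina, alpha-B-crystallin is best known from glia, and alpha-A-crystallin is a major protein of the lens. Sodium iodate is used to injure the pigment epithelium by oxidation, and photoreceptors degenerate in its wake.

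Both libraries are labelled as CD11b+ microglia, although the labels name magnetic CD11b selection for the iodate pellets only. The contents differed from that label. After filtering, 5573 PBS cells and 9261 NaIO3 cells were kept, and rod-like cells were 91.9% and 54.9% of them. Microglia-like cells, called from markers such as C1qa, Csf1r and Cx3cr1, numbered 12 and 1680. The other classes used here held 140 and 124 cone-like, 62 and 475 bipolar-like, and 30 and 220 Müller-like cells in PBS and NaIO3. Endothelial-like cells (2 and 104) and C1q-low leukocyte-like cells (0 and 62) were described in NaIO3 alone. The libraries held 26605477 and 75981079 unique molecular identifiers (UMIs, counted molecules), and median depth per kept cell was 2486 and 2930 UMIs. The median mitochondrial share was 7.23% in PBS and 2.53% in NaIO3, and 24 cell barcodes occurred in both libraries. With 1 library per treatment there is no replicate spread and no test of treatment: the 95% intervals below cover counting error only. PBS and NaIO3 differ in the bead step as well as in the injection, and these cannot be told apart.

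Hspa1a and Hspa1b are neighbouring copies that share much of their sequence, so their promoters are shown first, beside those of Dnajb1 and Hsph1, which moved differently from them in rod-like cells. On the minus strand of chromosome 17, Hspa1a (ENSMUSG00000091971) spans 34969190 to 34972156 and Hspa1b (ENSMUSG00000090877) spans 34956436 to 34959238, in GENCODE M21 on GRCm38. RefSeq entries on GRCm38.p6 matched 7 of the 10 members. Each sequence below is the 250 bases before the annotated start, 5′ to 3′ on the gene's strand: chr17:34972157-34972406 (minus) for Hspa1a, chr17:34959239-34959488 (minus) for Hspa1b, chr8:83607925-83608174 (plus) for Dnajb1, and chr5:149636337-149636586 (minus) for Hsph1. Capitals mark matches to a pair of inverted GAA units, written GAANNTTC or TTCNNGAA.
Hspa1a: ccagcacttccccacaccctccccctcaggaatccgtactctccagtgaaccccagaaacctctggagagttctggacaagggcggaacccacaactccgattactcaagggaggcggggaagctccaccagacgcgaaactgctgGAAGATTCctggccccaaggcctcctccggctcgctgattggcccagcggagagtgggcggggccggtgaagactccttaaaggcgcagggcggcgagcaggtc
Hspa1b: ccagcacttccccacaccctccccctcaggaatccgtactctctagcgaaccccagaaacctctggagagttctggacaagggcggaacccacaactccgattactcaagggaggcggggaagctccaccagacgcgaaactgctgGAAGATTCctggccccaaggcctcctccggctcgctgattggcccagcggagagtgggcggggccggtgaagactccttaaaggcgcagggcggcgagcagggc
Dnajb1: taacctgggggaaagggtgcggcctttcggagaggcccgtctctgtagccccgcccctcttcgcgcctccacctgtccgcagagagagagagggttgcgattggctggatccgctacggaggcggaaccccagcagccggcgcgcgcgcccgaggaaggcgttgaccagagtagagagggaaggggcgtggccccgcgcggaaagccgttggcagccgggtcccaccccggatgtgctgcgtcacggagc
Hsph1: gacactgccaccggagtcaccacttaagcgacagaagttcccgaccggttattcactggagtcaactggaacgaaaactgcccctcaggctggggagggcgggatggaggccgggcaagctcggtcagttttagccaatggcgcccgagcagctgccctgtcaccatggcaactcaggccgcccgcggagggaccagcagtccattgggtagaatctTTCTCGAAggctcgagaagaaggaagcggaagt
Counted with the 50 bases after the start, the Hspa1a and Hspa1b entries were 98.7% identical. They differed at 4 of 300 positions, C44T, T47C, T249G and C276T, with the Hspa1a base first and positions counted from 1 at the 5′ end. Both carried the same match, GAAGATTC, 104 bases before the start. Neither annotated Dnajb1 entry held a match. The Hsph1 entry held 3, and those after its start overlapped as TTCTGGAAAGTTC, a match of 3 units (searched as GAANNTTCNNGAA or TTCNNGAANNTTC). Both pair motifs read the same on either strand. Among 32817 promoters of the same length, 15.1% held at least 1 pair match, 1.95% held at least 2 and 0.603% a 3-unit match. Of the 7 matched members 5 held at least 1 pair match, 2 (Hsph1 and Hspb1) at least 2, and 1 (Hsph1) a 3-unit match. A match is a string in this window and was not tested as a binding site.

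Rod-like cells are the class with the most counts: 16793565 UMIs over 5119 PBS cells and 17513511 over 5085 NaIO3 cells. Levels are given as CPM, the UMIs of a gene per 1000000 UMIs of the class. A gene was called higher or lower at a 2-fold difference, provided 1 of the libraries reached 20 CPM and both together held 20 UMIs. In rod-like cells 7 of the 10 members passed that filter, and 4 of the 7 (Dnajb1, Hsph1, Hspa8 and Cryab) were at least 2-fold higher in NaIO3. Hsph1 and Cryab, at 17.3 and 6.19 CPM in PBS, passed only through NaIO3, the library where they were high. Over all 7138 genes tested the same rule called 10.1% higher. No member was at least 2-fold lower, against 2.93% of all genes. The median log2 ratio was 1.15 over the 7 members and 0.28 over all genes. The members did not move as 1 group: the HSP70 partners and Hspa8 were higher, while the inducible HSP70 genes and Hsp90aa1 were level or lower. Rescaling the class sums changes all ratios of a class by the same factor, so it cannot change their order. It does move the values: Hspa1b, at 0.967, went to 0.775 with median-of-ratios scaling.

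Hspa1a, the gene most often used to mark a heat shock response, was lower in NaIO3 rod-like cells. It had 2104 UMIs (125 CPM, 95% Poisson interval 120 to 131) in PBS and 1347 UMIs (76.9 CPM, 72.9 to 81.1) in NaIO3. The ratio of NaIO3 to PBS was 0.614, with an interval of 0.573 to 0.658, and did not reach the 2-fold rule. Hspa1b had 1185 and 1195 UMIs, or 70.6 and 68.2 CPM, and a ratio of 0.967 (0.892 to 1.05). The near-identical copies therefore differed in their ratios by more than counting error. With each cell thinned to 1000 UMIs, Hspa1a was found in 12.4% of 4855 PBS and 7.23% of 4590 NaIO3 rod-like cells, and Hspa1b in 6.98% and 6.62%. Unthinned, the Hspa1a shares were 30.1% and 20.0%. In bipolar-like cells thinned alike, Hspa1a was found in 0 of 62 PBS and 0 of 472 NaIO3 cells, which allows at most 5.78% and 0.778% by the exact binomial interval, and Hspa1b in 0 and 1. Unthinned, 3.23% of the 62 PBS and 3.37% of the 475 NaIO3 bipolar-like cells had an Hspa1a UMI. Median depths of the cells thinned were 2473 and 2662.5 UMIs for rod-like and 7326 and 6018.5 for bipolar-like cells.

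**Figure D1:**
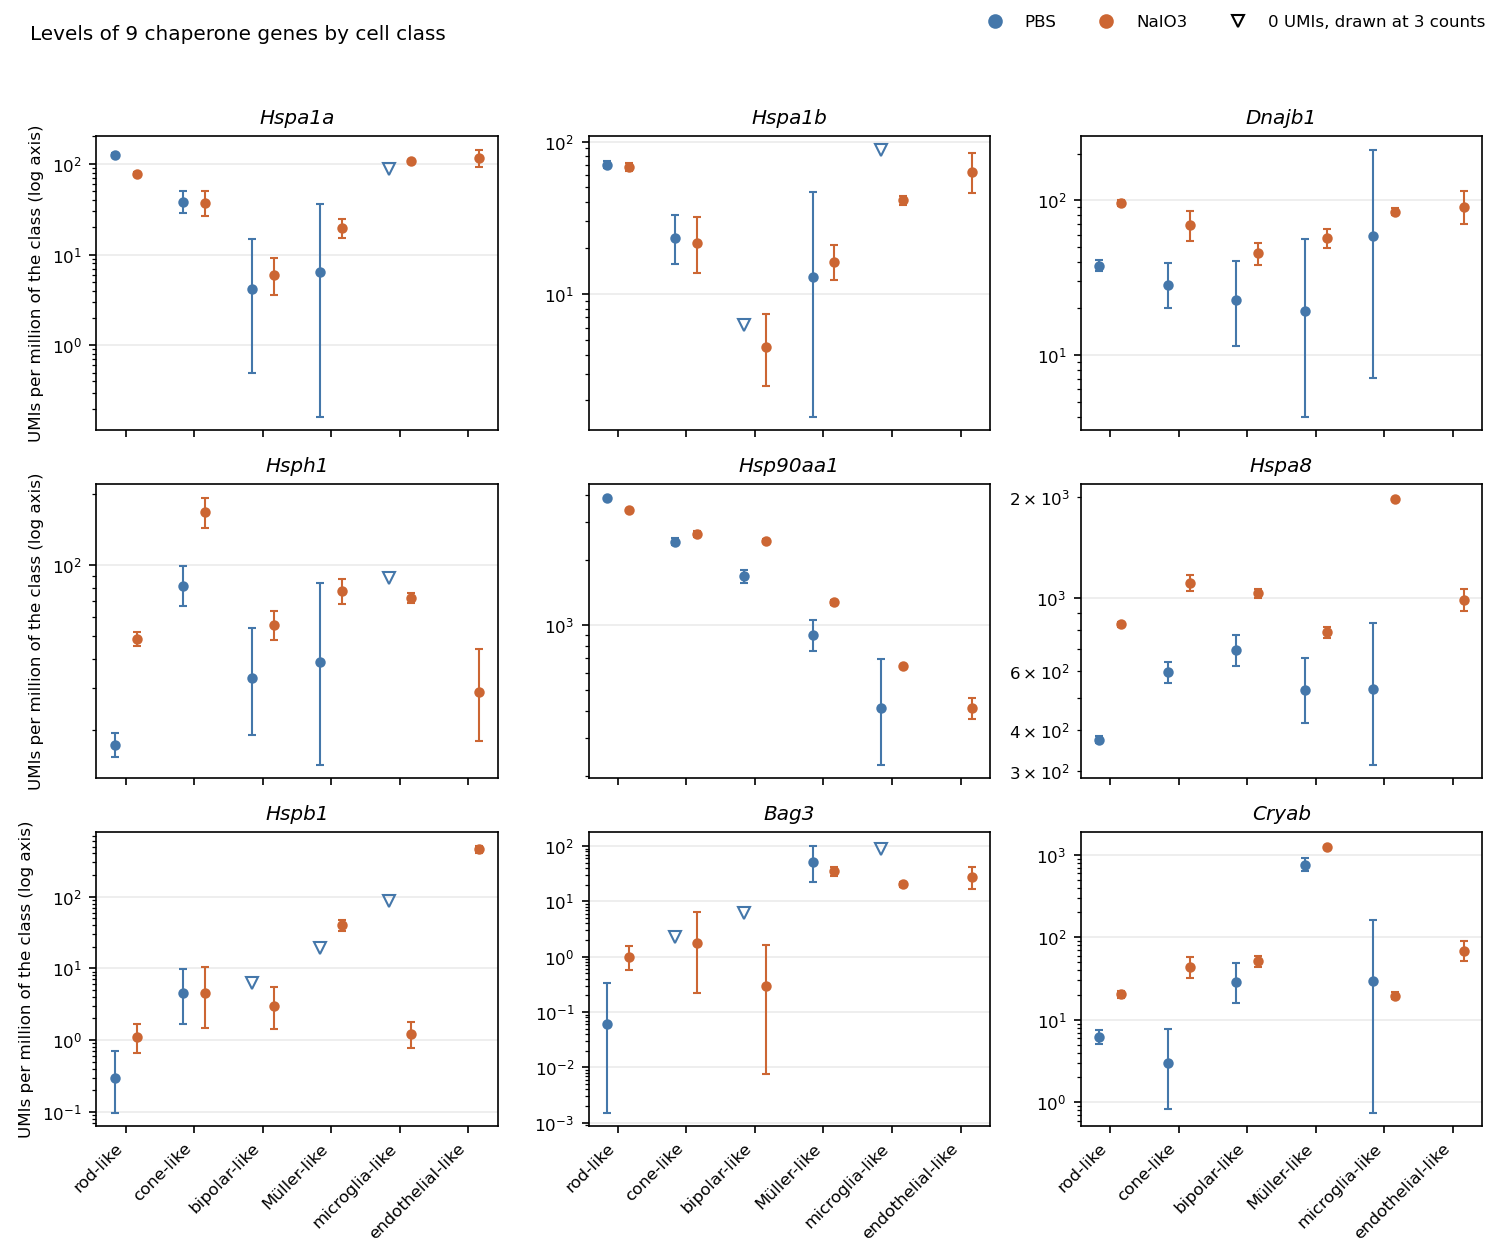
Levels of the members by cell class, in CPM on a log axis, with a point per library (PBS and NaIO3) and bars for exact 95% Poisson intervals. Open triangles mark classes with 0 UMIs, drawn at the value of 3 counts. Hsp90aa1 lies highest in rod-like cells (3839 in PBS, 3398 in NaIO3) and Cryab in Müller-like cells (760 and 1251).

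The balance between the HSP70 copies was read from their shares of the summed pair. Hspa1a supplied 64.0% of 3289 pair UMIs in PBS rod-like cells (62.3 to 65.6%, exact binomial) and 53.0% of 2542 in NaIO3 rod-like cells (51.0 to 54.9%). Both intervals lay apart. In cone-like cells the share was 62.2% in PBS and 63.1% in NaIO3, with 82 and 65 UMIs behind them and wide intervals. In NaIO3 the highest well-counted share was 72.1% (70.4 to 73.7%) in microglia-like cells. C1q-low leukocyte-like cells had 79.2% and Müller-like cells 54.8%. Of the 50-base windows of the Hspa1a transcript, 58.8% occur in Hspa1b, and 62.3% the other way round. Within the last 500 bases, where 3′ libraries mostly read, 0 of 451 windows were shared, so reads there tell the copies apart. Hspa1a also overlaps Gm20481 on the opposite strand. No source used here states whether the counting kept the strand.

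**Figure D2:**
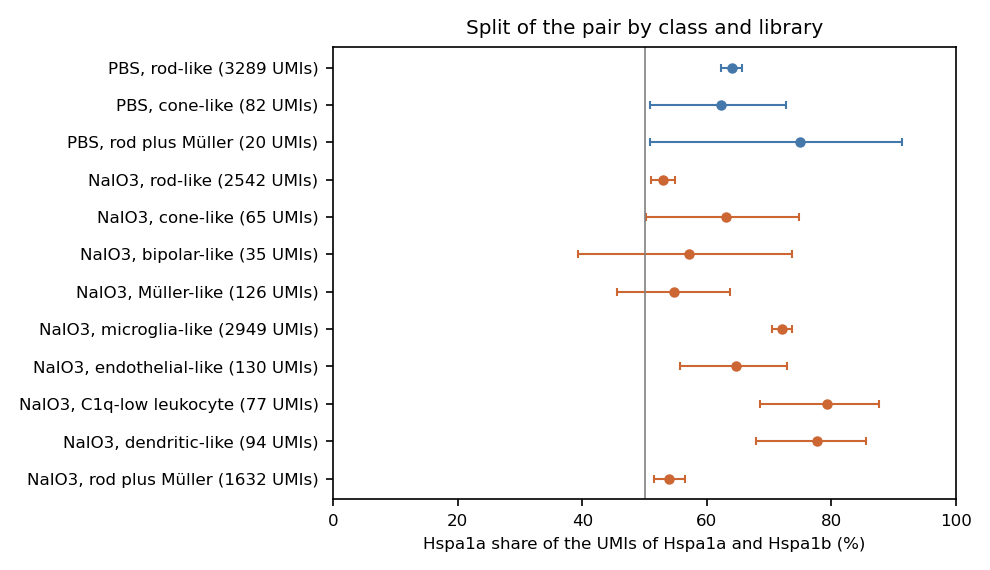
Hspa1a as a percentage of Hspa1a plus Hspa1b UMIs, by class and library, with exact 95% binomial intervals. NaIO3 rod-like cells sit at 53.0%, PBS rod-like cells at 64.0% and NaIO3 microglia-like cells at 72.1%.

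The lower Hspa1a level moved with RNA quality in PBS. Split by mitochondrial share, PBS rod-like cells had 158 CPM of Hspa1a in the 0 to 5% band, 120 in the 5 to 10% band, 110 in the 10 to 15% band and 94.1 above 15%. NaIO3 rod-like cells had 77.1, 75.3, 79.7 and 98.6 CPM in the same bands. Thus the gap was widest where mitochondrial RNA was lowest: the ratios were 0.489, 0.628, 0.725 and 1.05, the last with an interval of 0.494 to 1.97. Of the NaIO3 cells 4417 fell in the lowest band, against 1803 of the PBS cells. The Hspa1b ratios in the 4 bands were 0.786 (0.694 to 0.893), 1.01, 1.16 and 1.49, the last 3 with intervals that include 1. In 3 equal groups of cells by UMIs (tertiles) the ratio was 0.490, 0.617 and 0.652 from shallow to deep. The part of RNA quality in the Hspa1a difference was not tested.

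Dnajb1, the J-domain partner that brings clients to HSP70, was higher in NaIO3 rod-like cells. It had 635 UMIs (37.8 CPM) in PBS and 1688 (96.4 CPM) in NaIO3, a ratio of 2.55 (2.33 to 2.80). The ratio was 2.36, 2.38 and 2.75 in the mitochondrial bands up to 15%. Hsph1, the HSP110 exchange factor, had 290 UMIs (17.3 CPM) and 853 (48.7 CPM), a ratio of 2.82 (2.47 to 3.23). Its ratios in those bands were 2.89, 2.24 and 3.15. Above 15%, where NaIO3 has 46 cells, the ratios were 1.89 (0.734 to 4.11) for Dnajb1 and 1.13 (0.131 to 4.42) for Hsph1. Unlike Hspa1a, both were higher in NaIO3 in each band up to 15%, and the shares of thinned cells moved likewise, from 3.60% to 8.61% for Dnajb1 and from 1.65% to 4.84% for Hsph1.

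The constitutive HSP70 gene Hspa8, a housekeeping chaperone that also uncoats clathrin vesicles, stood far higher in counts. Rod-like cells held 6269 UMIs (373 CPM) in PBS and 14535 (830 CPM) in NaIO3, a ratio of 2.22 (2.16 to 2.29). It was found in 27.1% of thinned PBS and 52.2% of thinned NaIO3 cells, or 55.7% and 77.2% unthinned. Across the 4 mitochondrial bands its ratio was 2.64, 2.11, 2.04 and 1.99. With TMM scaling, which moves the median log2 ratio of all genes in rods by -0.32, and with median-of-ratios scaling the Hspa8 ratio was 1.81 and 1.78, so that it lost its call. Cryab kept ratios of 2.68 and 2.63 there but its scaled level came under the 20 CPM filter, which leaves 2 rather than 4 members called. These scalings also turned the split of all called genes: 10.1% higher and 2.93% lower became 5.10% and 6.40% with TMM.

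Hsp90aa1, the inducible cytosolic HSP90, had 64469 and 59508 UMIs in rod-like cells. That was 3839 CPM (3809 to 3869) in PBS and 3398 CPM (3371 to 3425) in NaIO3, a ratio of 0.885 (0.875 to 0.895). Its ratio lay between 0.855 and 0.885 in all 4 mitochondrial bands. Nearly every thinned rod-like cell had a UMI, 95.9% in PBS and 94.0% in NaIO3. Its constitutive relative Hsp90ab1 moved the other way, from 218 to 496 CPM, a ratio of 2.27 (2.18 to 2.36).

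**Figure D3:**
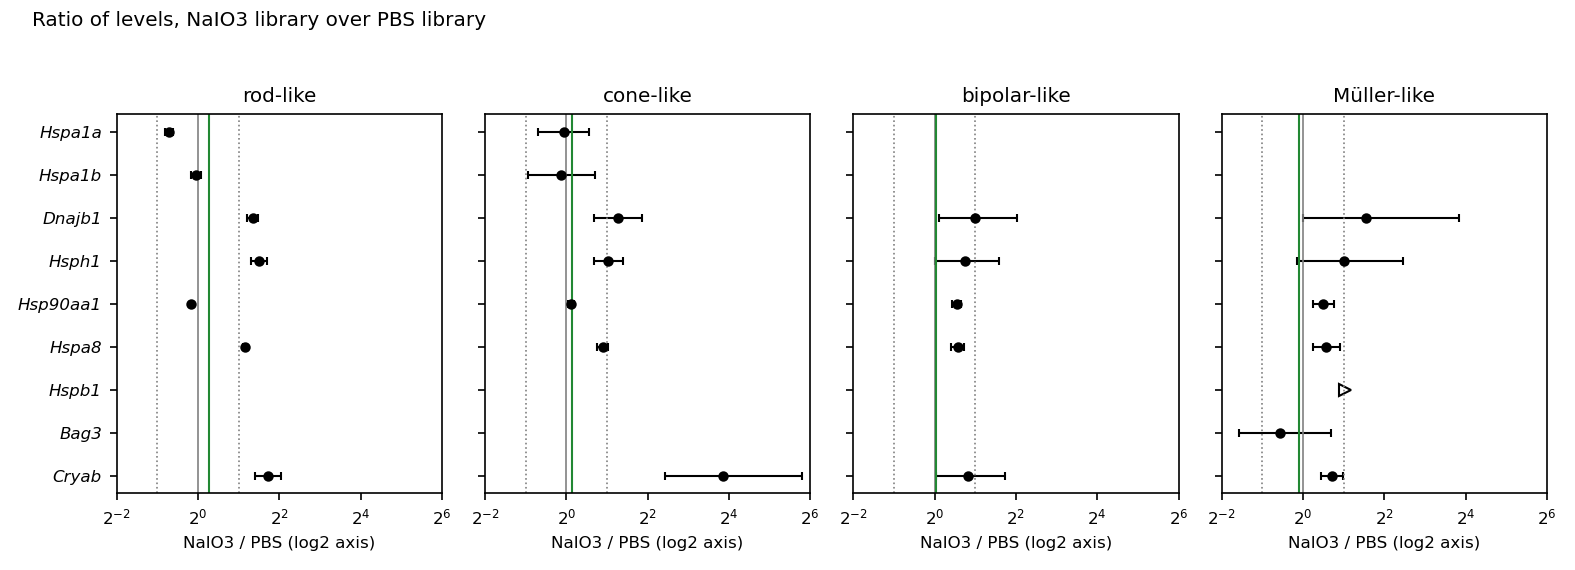
NaIO3 to PBS ratio of each member in rod-like, cone-like, bipolar-like and Müller-like cells, on a log axis, with exact 95% intervals for counting error. Dotted lines mark 0.5 and 2, the green line is the median of all genes that passed the filter, and an open triangle is a lower bound. In rod-like cells Hspa1a lies at 0.614 and Cryab at 3.28.

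**Figure D4:**
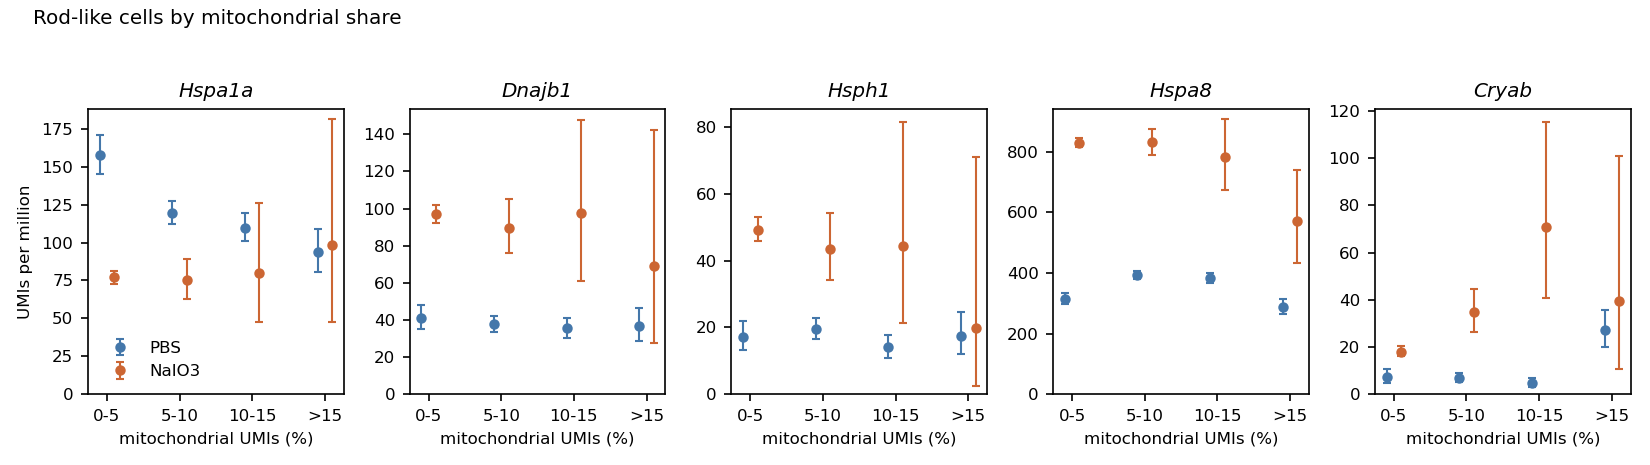
Levels of Hspa1a, Dnajb1, Hsph1, Hspa8 and Cryab in rod-like cells by band of mitochondrial RNA share, in CPM with exact 95% Poisson intervals, for PBS and NaIO3. Hspa1a runs from 158 to 94.1 across the PBS bands and lies between 75.3 and 98.6 in NaIO3.

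Cryab, a small heat shock protein, was scarce in rod-like cells, with 104 UMIs (6.19 CPM) in PBS and 356 (20.3 CPM) in NaIO3. The ratio was 3.28 (2.63 to 4.12), or 2.09 in thinned cells. It was 2.49, 5.14, 15.6 and 1.46 from the lowest to the highest mitochondrial band, the last with an interval of 0.384 to 3.98. These UMIs sat in few cells: 0.762% of thinned PBS and 1.55% of thinned NaIO3 rod-like cells had one, or 1.86% and 4.80% unthinned. The 51 cells with the most held 57.7% of the PBS and 44.9% of the NaIO3 UMIs. Müller markers in the same rod-like cells went from 46.3 to 82.2 CPM, 0.293% and 0.906% of the Müller-like level, while Cryab was at 0.814% and 1.62% of its Müller-like level. The Müller-like marker level itself was 15816 CPM in PBS and 9079 CPM in NaIO3. The part of Müller RNA in the rod values was not tested. Hspb1 (5 and 19 UMIs) and Bag3 (1 and 17 UMIs) were too few to pass the filter, and Cryaa was at 0 in the rod-like cells of both libraries.

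Müller-like glia, called from Rlbp1, Slc1a3, Aqp4 and other markers, were the class with the highest Cryab level. They had 118 UMIs (760 CPM, 629 to 911) in PBS and 4382 (1251 CPM, 1214 to 1289) in NaIO3, a ratio of 1.64 (1.37 to 1.99). Thinned to 1000 UMIs, 43.5% of 23 PBS cells and 68.0% of 197 NaIO3 cells had a Cryab UMI, with intervals of 23.2 to 65.5% and 61.0 to 74.5%. Unthinned the shares were 70.0% and 93.2%, at median depths of 4964.5 and 14523 UMIs. The NaIO3 level was 1021, 1137 and 1344 CPM from the shallow to the deep tertile of the cells, so depth moved with it. Among the classes described in NaIO3, endothelial-like cells came next at 68.6 CPM (50.9 to 90.4). Bipolar-like, cone-like and C1q-low cells at 51.3, 43.8 and 29.8 CPM followed, each overlapping its neighbour, then rod-like and microglia-like cells at 20.3 and 19.5 CPM. The 31 dendritic-like cells of NaIO3, which are outside that order, had 122 CPM of Cryab.

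At 2-fold, 3 of the 7 members that passed in Müller-like cells were higher (Dnajb1, Hsph1 and Hspb1), where the rule called 14.2% of all genes higher and 15.9% lower. None was lower. The PBS side holds only 30 cells and 155162 UMIs. Dnajb1 and Hspb1 reached 20 CPM in NaIO3 alone, so they passed only through the library where they were high. Dnajb1 rested on 3 PBS UMIs against 200 in NaIO3 (ratio 2.95, 0.996 to 14.4), and Hsph1 on 6 against 271 (2.0, 0.907 to 5.50). Both intervals included 1. Thinned, the Dnajb1 ratio was 1.28, and Hsph1 reached 2 in 8 of 13 alternatives, with a lowest ratio of 1.88. Hsp90aa1 (896 to 1269 CPM, ratio 1.42, 1.2 to 1.69) and Hspa8 (528 to 786 CPM, 1.49, 1.19 to 1.88) lay above 1 with their intervals. Rod markers in the Müller-like cells went from 1237 to 4623 CPM, 2.17% and 16.7% of the rod-like level. The part of rod RNA was not tested. Hspa1a and Hspa1b had 1 and 2 PBS UMIs and did not pass.

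Cells that passed the rod gate and also held Müller markers numbered 14 in PBS and 411 in NaIO3. They needed 15 Müller marker UMIs per 10000, a lower cut than the 50 of the Müller gate. In NaIO3 they held 59.7% of all Cryab UMIs of the kept cells, against 20.4% of all UMIs. Their median depth in NaIO3 was 35357 UMIs. Cryab there went from 181 to 670 CPM, a ratio of 3.69 (2.59 to 5.48), beside Müller markers at 29.0% and 46.9% of the Müller-like level. What these cells are was not tested, and no class rests on them.

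Hspb1, which in other tissues is abundant in vessels and muscle, followed endothelial markers in NaIO3. Its level was 461 CPM (413 to 513, 336 UMIs) in endothelial-like cells, with a UMI in 29.4% of 102 thinned cells and 71.2% of unthinned ones. Müller-like cells came next at 40.0 CPM (33.6 to 47.2, 140 UMIs). The other 5 classes lay between 1.08 and 4.47 CPM with overlapping intervals. The Müller-like cells also held endothelial markers at 10.4% of the endothelial-like level, beside 8.67% for Hspb1, and the part of endothelial RNA was not tested. The Müller ratio for Hspb1, 0 UMIs in PBS against 140, is at least 2.07-fold higher, taking 3 counts for the PBS cells, with a lower limit of 1.66 from the exact interval. That bound was 1.24 with a mitochondrial limit of 5%. The 2 PBS endothelial-like cells had 2 Hspb1 UMIs.

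Bag3, the exchange factor that steers clients to autophagy, was near 0 in all 3 neuron classes. In NaIO3 it was at 35.1 CPM in Müller-like, 27.4 in endothelial-like and 20.3 in microglia-like cells, against 0.971 in rod-like, 1.79 in cone-like and 0.297 in bipolar-like cells. Müller-like cells had 8 UMIs (51.6 CPM) in PBS and 123 in NaIO3, a ratio of 0.681 (0.335 to 1.61), or 1.38 as a mean over cells. Of the Bag3 UMIs in kept NaIO3 cells, 39.7% came from microglia-like cells, which held 26.9% of all UMIs. A further 31.9% came from the cells with both rod and Müller markers, which held 20.4% of all UMIs. Glia and vessels thus carried the transcript and neurons nearly lacked it, in counts that allow no treatment comparison.

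Cryaa was not detected in PBS, where 0 of 26605477 UMIs were found, and had 3 UMIs among 75981079 in NaIO3. All 3 lay in 2 microglia-like cells. Alpha-A-crystallin was therefore at or under the limit that 3 counts set in both libraries. Of the lens markers, Mip and Lim2 were at 0 UMIs in Müller-like cells of both libraries, and Bfsp2 had 18 UMIs (5.14 CPM) in NaIO3.

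Cone-like cells had 3 of 7 passing members at least 2-fold higher (Dnajb1, Hsph1 and Cryab) and none lower. The rule called 8.97% of all genes higher and 4.72% lower. Dnajb1 went from 28.5 to 68.8 CPM, a ratio of 2.41 (1.62 to 3.66), and Hsph1 from 81.8 to 167 CPM, a ratio of 2.04 (1.60 to 2.61). In NaIO3 the cone-like Hsph1 level of 167 CPM (144 to 193) was the highest of the 7 classes, with C1q-low cells next at 81.1. The 22 T or NK-like cells, not otherwise described, had 110 CPM (80.8 to 146), an interval that meets that of the cone-like cells. The cone-like Hsph1 ratio was 1.87 with TMM, 1.82 with median-of-ratios scaling, 1.92 over a total without mitochondrial genes and rod markers, and 1.29 in thinned cells, all under the 2-fold rule. It was 0.795 when cells over 5% mitochondrial RNA were left out. Cryab went from 4 to 49 UMIs, a ratio of 14.6 (5.35 to 55.7), but 19 of the 49 sat in 1 cell, and Müller markers in the cone-like cells went from 17.3 to 294 CPM. Thinned, Cryab had 0 UMIs in 139 PBS cells and a UMI in 4 of 120 NaIO3 cells, at least 1.93-fold higher with 3 counts for PBS. The inducible HSP70 copies were level in cone-like cells: 0.957 (0.619 to 1.47) for Hspa1a and 0.922 (0.518 to 1.62) for Hspa1b.

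In bipolar-like cells 5 members passed and none was 2-fold higher or lower, where all genes gave 9.43% and 8.45%. Dnajb1 came closest, from 22.8 to 45.4 CPM, a ratio of 1.99 (1.08 to 4.08). Hspa8 had 1.48 (1.33 to 1.66) and Hsp90aa1 1.46 (1.36 to 1.57), but with a mitochondrial limit of 5% both turned, to 0.844 and 0.873. Cryab had 1.77 (1.03 to 3.31), with 69 of its 173 NaIO3 UMIs in 1 cell, and 0.811 as a mean over cells. Hspa1a and Hspa1b were nearly missing, at 5.93 and 4.45 CPM in NaIO3, the lowest of the 7 classes for both.

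Microglia-like cells can hardly be compared by treatment, since the 12 PBS cells held 33977 UMIs. Of the members 8 passed, 3 of them with no usable fold, and 1 of the other 5 (Hspa8) was at least 2-fold higher. The rule called 8.21% higher and 32.3% lower here, of all 7884 genes that passed, 1453 of them with no usable fold. Hspa8 had 18 UMIs (530 CPM) in PBS and 39402 (1976 CPM) in NaIO3, a ratio of 3.73 (2.36 to 6.29). Hsp90aa1 had 14 and 12816 UMIs, a ratio of 1.56 (0.929 to 2.85), which was 0.314 with no ceiling on rod markers and 3.35 without the top cell of each library. Hspa1a was at 0 in PBS and had 2126 UMIs in NaIO3, at least 1.21-fold higher with 3 counts for PBS, but with an exact lower limit of 0.981, so counting error allows no difference. Within NaIO3, microglia-like cells had the highest Hspa8 level of the 7 classes, 1976 CPM (1957 to 1996). They supplied 43.8% of the Hspa8 UMIs, against 26.9% of all UMIs.

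Among the NaIO3 microglia-like cells, levels moved with depth. In tertiles by UMIs, with medians of 858, 2487 and 23364.5 UMIs, Hspa1a was at 8.02, 49.2 and 116 CPM. Dnajb1 was at 34.1, 58.7 and 88.9 CPM, and Hspa8 at 1336, 1562 and 2039. Hsp90aa1 ran the other way at its low end, with 756, 619 and 642 CPM. The summed immediate early genes, which tissue digestion is known to induce, were at 592, 4510 and 8908 CPM in the same tertiles. The part of depth or digestion was not tested.

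**Figure D5:**
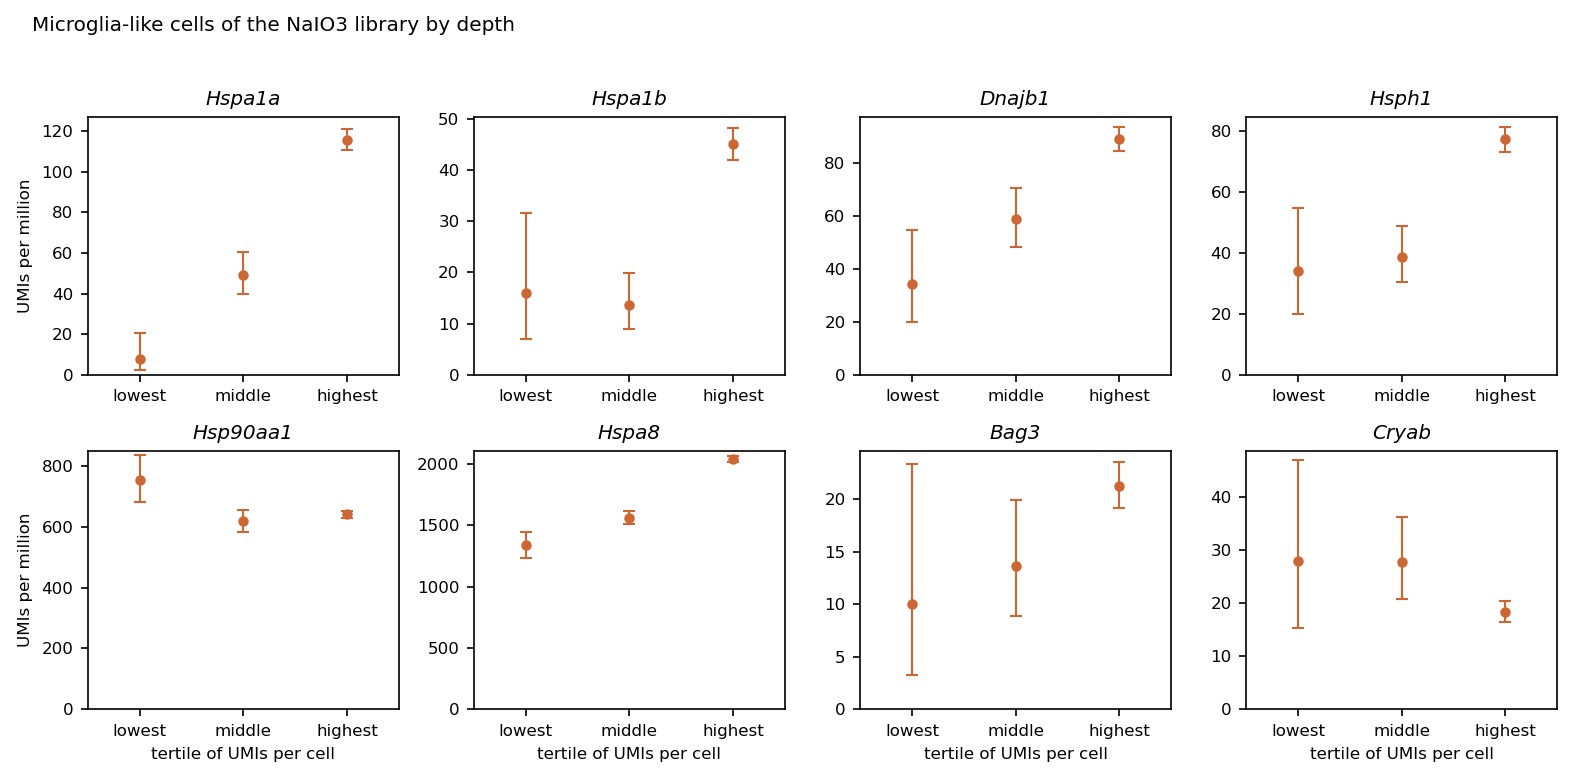
Levels of 8 members in NaIO3 microglia-like cells by tertile of the cells by UMI count, in CPM on a linear axis with exact 95% Poisson intervals. Hspa1a runs from 8.02 through 49.2 to 116, while Hsp90aa1 stays between 619 and 756.

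The same cells were compared at 1000 UMIs each. Of 72 cells with an Hspa1a UMI, 11.1% also had Hspa1b (4.92 to 20.7%), against 3.22% of 1243 without (2.31 to 4.36%). Fos, an immediate early gene, was found in 76.4% of the 72 (64.9 to 85.6%) and in 35.5% of the others (32.8 to 38.2%). The cells with Fos were also deeper before thinning, with a median of 18086.5 UMIs against 2265. In rod-like cells no such pairing was seen: Hspa1b was found in 6.33% of NaIO3 cells with Hspa1a and 6.65% without, and in 7.78% and 6.87% in PBS. Fos was found in 47.0% of NaIO3 rod-like cells with Hspa1a (41.5 to 52.5%) and 53.1% without (51.6 to 54.6%). Nor did Fos go with Dnajb1 cell by cell in NaIO3 rods beyond counting error, at 55.4% (50.4 to 60.4%) with and 52.4% (50.8 to 53.9%) without. In the microglia-like cells that pair also overlapped, at 48.1% (36.7 to 59.6%) with and 37.1% (34.4 to 39.8%) without. Cells are not replicates, so these shares describe the libraries only.

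Split by Edn2, an injury transcript, NaIO3 rod-like cells had overlapping intervals for Dnajb1 and Hspa1a. NaIO3 rod-like cells with a thinned Edn2 UMI (795 cells) had 112 CPM of Dnajb1 (89.9 to 138), and the 3795 without had 90.9 (81.6 to 101). Hspa1a was at 67.9 and 79.1 CPM, with overlapping intervals. Hsp90aa1 was lower with Edn2, at 3098 against 3447 CPM, with intervals apart. Among NaIO3 Müller-like cells, the 78 with an Lcn2 UMI had 1449 CPM of Cryab (1194 to 1742) and the 119 without had 1109 (928 to 1315), again overlapping.

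The order of the 7 classes in NaIO3 differed by gene. Hsp90aa1 levels followed 1 order with no overlap: 3398 CPM in rod-like, 2630 in cone-like, 2449 in bipolar-like, 1269 in Müller-like, 643 in microglia-like, 539 in C1q-low and 411 in endothelial-like cells. PBS gave the same order for the first 5, from 3839 to 412 CPM. Hspa1a ran from 115 CPM in endothelial-like through 107 in microglia-like, 101 in C1q-low and 76.9 in rod-like cells, neighbours whose intervals overlapped, to 36.7 in cone-like, 19.7 in Müller-like and 5.93 in bipolar-like cells. The 31 dendritic-like cells, outside that order, had 73 Hspa1a UMIs among 541683, beside 84 among 729071 in endothelial-like cells. Hspa1b was highest in rod-like cells, 68.2 CPM (64.4 to 72.2), level with the 63.1 of endothelial-like cells. Dnajb1 varied least, from 109 CPM in C1q-low to 45.4 in bipolar-like cells, each class overlapping the next.

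Over the 10 sums of a class in a library with at least 50 cells, the transcripts closest to each member were sought among 10591 genes by Pearson's r of log2(CPM + 1). These points share libraries and depth, so r is a description. Cryab lay closest to Cacng4 (0.990), Aqp4 (0.986) and Plpp3 (0.986), of which Aqp4 is the Müller water channel. Dnajb1 lay closest to Fos (0.961), Mitd1 and Etv6. Hspa1a lay closest to Isyna1 (0.945) and Hspa1b (0.929), while Hspa1b lay closest to Poc1b (0.941). For Hsp90aa1 the closest were Rnf32 (0.992) and Cfap69 (0.987), for Hspa8 M6pr (0.935), for Hspb1 Napepld (0.980), for Bag3 Slc8b1 (0.985) and for Hsph1 Eif3b (0.848).

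Other chaperones in rod-like cells were mostly within 2-fold, where the rule called 10.1% of all genes higher and 2.93% lower. None of the 4 further HSP70 and HSP110 genes that passed was called, nor any of 8 J-domain genes, of which Dnaja4 (ratio 1.85, 1.66 to 2.06) and Dnaja1 (1.58, 1.5 to 1.67) were highest. Among HSP90 and its partners 3 of 12 were higher, led by Fkbp5 (18.2 to 47.8 CPM, 2.62) and Hsp90ab1, while Stub1 (0.721) and Ahsa1 (0.720) were lowest. Hsf1, the master factor, went from 24.7 to 32.8 CPM (1.33, 1.17 to 1.51) and Hsf2 had 1.36. None of 6 mitochondrial chaperones, 16 endoplasmic reticulum and unfolded protein response genes or 7 subunits of the TRiC chaperonin was called. Hspa5, the reticulum HSP70, had 1.30, and Atf4 had 0.732. Hspb6, a small heat shock protein, was at 92.3 and 91.1 CPM.

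Beside them, 5 of 10 other stress-induced genes were higher and 2 lower in rod-like cells, against 10.1% and 2.93% of all genes. Mt2, a metallothionein, went from 2.20 to 44.8 CPM, a ratio of 20.3 (14.6 to 29.1), and Gadd45b, a stress-response gene, had 16.0. Ubb, a polyubiquitin gene, was lower, from 4184 to 1907 CPM (0.456). Of 13 immediate early genes 7 were higher, with a summed ratio of 3.47. In Müller-like cells 12 of 16 immediate early genes were higher, against 14.2% of all genes, and Mt2 went from 161 to 2538 CPM. PBS holds only 30 Müller-like and 12 microglia-like cells. The summed immediate early ratio in microglia-like cells was 0.631. The median log2 ratio there was -0.95 over the 16 of these genes with a usable fold and -0.62 over all genes. Of 18 reticulum genes that passed in microglia-like cells, 16 had a usable fold and 5 were higher. By the same rule 8.21% of all 7884 genes that passed there were higher, with 1453 of the 7884 lacking a usable fold. Among the 5 higher reticulum genes was Hspa5 (6 to 21458 UMIs, ratio 6.09, 2.80 to 16.6).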

How the data were processed

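Each library was deposited by the authors as a raw matrix of UMI counts per gene and cell barcode, made with Cell Ranger 3.0.2, per the file headers, on mm10, per the submitters' processing notes. No count was normalized before deposit. The sources used here do not give the annotation behind the counts. Each library is 1 pool of 6 mice.

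Cells with at least 500 UMIs, 300 genes and at most 15% mitochondrial UMIs were kept. In PBS 669 barcodes were left out, 657 of them for mitochondrial share alone. Scrublet (in scanpy 1.11.5, 6% expected) removed 180 of 9441 NaIO3 cells (1.91%). In PBS it marked 0 of 5573, so no PBS cell was removed as a doublet, and it is taken not to have worked there. Classes were gated on marker genes that include no member, with thresholds set after marker distributions were seen, and are called by name with "-like". Of the NaIO3 cells, 24 Müller-like cells lay just inside the gate and 10 just outside it. UMIs were summed per class and library in Python 3.11.15 (numpy 2.4.6, scipy 1.17.1, pandas 2.3.3).

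Ratios carry exact conditional binomial intervals and levels exact Poisson intervals at 95%. A count of 0 was set at 3 counts for a lower bound. UMIs are molecules, but intervals cover counting error only. The ratio intervals and the 2-fold rule were checked on simulated class sums with Poisson counts. That is the model behind the intervals, so the check does not cover spread between cells or libraries. Alternatives covered scaling (TMM factors from edgeR 4.0.16, median-of-ratios factors, total without mitochondrial and rod genes, mean per cell), mitochondrial limit, cell filter, thinning, gate, doublets, the top cell, the low-level filter and the fold. The ceiling on rod markers and the shared barcodes were alternatives chosen after seeing the data. Members, gene lists and named subsets were chosen with earlier results of these data known. All 10 members are described. From each other list the 2 highest and 2 lowest ratios per class could be named, and for each member the 3 genes with the most similar levels over classes.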

Additional observations from a re-analysis of the deposited data

Results flagged for a closer look

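The ratio of Hsp90aa1 lay on opposite sides of 1 between classes. Its ratio of NaIO3 to PBS was 0.885 (0.875 to 0.895) in rod-like cells, 1.08 (1.03 to 1.14) in cone-like, 1.46 (1.36 to 1.57) in bipolar-like and 1.42 (1.2 to 1.69) in Müller-like cells. The intervals on either side of 1 do not meet, but with 1 library per treatment the difference between classes was not tested. In cone-like cells the ratio fell to 0.993 with TMM, 0.966 with median-of-ratios scaling and 0.908 with no ceiling on rod markers, and in bipolar-like cells to 0.873 at a mitochondrial limit of 5%. In rod-like cells it was under 1 in all 13 alternatives. The rod markers of the same rod-like cells went from 57151 to 27741 CPM. In Müller-like cells the rod markers went from 1237 to 4623 CPM, in bipolar-like cells from 2264 to 2234 and in cone-like cells from 9980 to 7677. The part of rod RNA in these ratios was not tested.

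Cryab was also high in cells that no gate claimed, which the comparisons leave out. It had 4 UMIs (25.5 CPM) in 34 ungated PBS cells and 386 UMIs (410 CPM) in 379 ungated NaIO3 cells, a ratio of 16.1 (6.22 to 59.2), where the 2-fold rule called 21.1% of all genes higher. Of the 386 UMIs, 66 came from 1 cell. Summed Müller markers there were at 619 and 1788 CPM, which is 3.92% and 19.7% of their Müller-like level, and Cryab was at 3.36% and 32.8% of its own Müller-like level. The Müller-like level of the markers itself was 15816 CPM in PBS and 9079 CPM in NaIO3. The part of Müller RNA was not tested.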

How the results depend on the processing

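Over 31 ratios of a member in a class, 334 values under the alternatives stayed within the 95% interval of the reported ratio, 50 moved further and 1 called ratio reversed: Hsph1 in cone-like cells had a log2 ratio of -0.33 with a mitochondrial limit of 5%, where the cause was not tested. In all 18 values crossed a ratio of 1, that one included, and the others belong to ratios that the 2-fold rule did not call. At the 5% limit bipolar-like Hspa8 went to 0.844 and Hsp90aa1 to 0.873, with thinning bipolar-like Hsph1 to 0.420, and with no ceiling microglia-like Hsp90aa1 to 0.314. In rod-like cells Dnajb1 ran from 2.04 to 2.56, Hsph1 from 2.26 to 2.97, Cryab from 2.09 to 3.36, Hspa8 from 1.78 to 2.64 and Hspa1a from 0.489 to 0.631 over 13 settings. Hspa1b ran there from 0.775 to 0.993 and Hsp90aa1 from 0.710 to 0.914. Counts of members at least 2-fold higher in rod-like cells were 2 with TMM and 2 with median-of-ratios scaling, in place of 4, since Hspa8 came under 2-fold and Cryab under 20 CPM, with a ratio of 2.68 and 2.63; lower ones were 1 with median-of-ratios scaling, 1 at the 5% limit and 1 at a fold of 1.5, in place of 0 (Hspa1a each time). The 3 higher members in cone-like cells became 0 at the 5% limit and 0 with thinned cells. In bipolar-like cells 0 higher became 1 with median-of-ratios scaling, 2 with no mitochondrial limit, 1 with doublets kept, 3 with no ceiling on rod markers, 3 at a fold of 1.5 and 1 as mean per cell, and 0 lower became 1 when thinned. The 3 higher members in Müller-like cells became 1 with a filter of 1500 UMIs and 800 genes and 1 when thinned. In microglia-like cells 1 higher became 3 with TMM, 3 with median-of-ratios, 2 with no mitochondrial limit, 2 with no ceiling and 2 at a fold of 1.5, and 0 lower became 1 with no ceiling and 1 at a fold of 1.5. TMM shifted the median log2 ratio of all genes by -0.32 in rod-like, -0.14 in cone-like, 0.13 in Müller-like and 0.74 in microglia-like cells, and median-of-ratios scaling by -0.35, -0.18, 0.23 and 0.75. In rod-like cells 77.6% of called genes were higher, 44.4% with TMM and 41.7% with median-of-ratios scaling. In microglia-like cells the share was 20.3%, 52.0% and 52.2%. What made the counts differ was not tested. The 12 PBS microglia-like and 30 PBS Müller-like cells limit depth most. No paired analysis was possible because each group is 1 library. For the same reason no replicate could be left out.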

Other observations

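Other crystallin and small heat shock genes had these levels. Crybb3, a beta-crystallin, had 0 UMIs in the 30 PBS Müller-like cells and 114 in the 220 NaIO3 ones (32.5 CPM), at least 1.68-fold higher with 3 counts for PBS and an exact lower limit of 1.35. Crybb1 had 6 UMIs in the 12 PBS microglia-like cells (177 CPM) and 38 in the 1680 NaIO3 ones (1.91 CPM), a ratio of 0.0108 (0.00453 to 0.0312). Hspb8, a partner of BAG3, had 63 UMIs in NaIO3 endothelial-like cells (86.4 CPM) and 3 in NaIO3 Müller-like cells. Hspb2, which overlaps Cryab on the opposite strand, had 18 UMIs (5.14 CPM) in NaIO3 Müller-like cells, against 4382 for Cryab. As for Hspa1a, no source used here states whether the counting kept the strand.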
